A study of Mus musculus with 12 samples.

Results

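A set of 10 genes named for squamous epithelium was followed by symbol through rectal RNA of mice with and without colitis. They are the keratins Krt13, Krt14, Krt6a and Krt36, the small proline-rich genes Sprr1a, Sprr2h and Sprr3, and Dmkn, Sfn and Dsg3. Of these 10 genes, 9 were found among the 17734 genes of the table and all 9 were among the 15315 genes tested. The level of Sprr3 was not analysed here, only its promoter.

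Bulk RNA was sequenced from 12 male C57BL/6 mice in 4 groups of 3, and the methods give their age as 8 to 10 weeks. Normal mice drank water, and colitis mice drank 2.5% dextran sulfate sodium (DSS), a chemical that injures the bowel lining, for 7 days. The normal and colitis groups with BBR were also given berberine (BBR), a plant alkaloid, by gavage at 100 mg/kg, for 6 days by the protocol in the labels and for 7 days by the methods. All groups were of 1 strain without a transgene in the labels, and the tissue is called colorectum in the labels and rectum in the methods. Values are read as FPKM, a read number per transcript length and library depth, and fold changes are differences of log2(FPKM + 0.1), which come out too small for low genes. Adjusted p-values are from limma over all tested genes, and a gene is said to have risen or fallen where its adjusted p was under 0.05. With 3 mice in a group, the smallest p that an exact permutation test (two-sided) allows is 0.1.

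Stratified squamous epithelium lines the skin, mouth, oesophagus and anal canal, while the colon and rectum are lined by a single layer of columnar cells whose keratins are the simple ones. In squamous cells the basal layer makes one keratin pair, the upper layers change to others, desmosomes hold the cells together, and small proline-rich proteins are cross-linked by transglutaminases into the cornified envelope. Some of these genes are also switched on in wounded epithelium.

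The 4 mice numbered 4, 1 in each group, stood apart from the 8 numbered 1 to 3. Their column totals were 482194 to 504337, with 872 to 1086 genes at 0, against 696286 to 765876 and 1332 to 1926 in the 8 others. The steps between low values, which allow a rough estimate of depth, fitted 1 read being worth 50.75 to 59.0 FPKM times bases on the transcript length less 25 to 50 bases in these 4 mice. In the 8 others they fitted 62.5 to 67.5 on the length less 250 to 300 bases, so a short transcript such as Sprr2h was scaled differently. From these steps 3 reads on Sprr2h were worth 0.217 to 0.44 FPKM and 3 reads on Krt6a 0.0683 to 0.101 FPKM. Read numbers below are estimates of this kind, and their intervals cover counting error only. Because each group had 1 such mouse, differences within the mice numbered 4 and within the others are given beside the results of colitis and, for the other comparisons, where they differ in sign or for the leading genes.

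Levels per length differed widely among the genes. Over the 12 mice Sfn had a mean of 188.3 FPKM and Sprr1a of 102.6 FPKM. Sprr2h, Krt36 and Dmkn had means of 3.70, 3.24 and 2.54 FPKM, Krt13 and Krt14 of 1.21 and 1.05 FPKM, and Dsg3 and Krt6a of 0.192 and 0.131 FPKM. The keratins were minor beside the simple ones. The sum of Krt13, Krt14, Krt6a and Krt36 was 1.65 to 4.23 FPKM in normal mice and 7.57 to 15.09 FPKM in colitis mice. The sum of the simple keratins Krt7, Krt8, Krt18, Krt19 and Krt20 was 7501 to 10880 FPKM in normal mice and 7112 to 10351 FPKM in colitis mice. The 4 squamous keratins were thus 0.0201% to 0.0389% of this keratin signal in normal mice and 0.0966% to 0.197% in colitis mice.

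The label squamous was checked against genes that define that epithelium. Krt5, the basal partner of Krt14, was at most 0.12 FPKM in any mouse, and Trp63, the transcription factor of squamous basal cells, at most 0.18 FPKM. Krt4, the partner of Krt13, was at most 0.03 FPKM, Krt1, a keratin of upper epidermal layers, at most 0.09 FPKM, and Col17a1, a basal hemidesmosome collagen, at most 0.09 FPKM. Krt5, Krt4, Krt1 and Col17a1 were thus at most 0.12 FPKM in all 12 mice, close to the 0.14 FPKM of Krt6a in colitis mouse 4. Col17a1 was at 0.06, 0.08 and 0.06 FPKM in colitis mice and at 0.01, 0 and 0.03 FPKM in normal mice. Trp63 was at 0.18 FPKM in colitis mouse 3 receiving BBR against at most 0.03 FPKM in the other 11. That mouse was also the highest of the 12 for Krtdap (2.97 FPKM), Lgals7 (0.82 FPKM) and Bnc1 (0.16 FPKM), squamous genes picked after their values were seen. It was the highest of its group for all 9 genes described. Other squamous genes, picked in the same way, were not raised in it. Krt17 was at 0.20 FPKM there and up to 6.10 FPKM elsewhere, and Krt15 at 0.18 and up to 0.57 FPKM. Pkp1 was at 0.97 and up to 8.5 FPKM, and Gjb5 at 1.6 and up to 21.98 FPKM. The part of this mouse in the results was not tested, and results that rest on it are given with and without it. Other genes of the squamous lists were present, and 9 of the 13 other squamous keratins in the table passed the filter on low values. Krt10, the partner of Krt1, was at 0.68 to 1.72 FPKM, Krt15 at 0.09 to 0.57 FPKM and Krt17 at 0 to 6.10 FPKM. The desmosome gene Pkp1 was at 0.45 to 8.5 FPKM, Krtdap at 0 to 2.97 FPKM and Ly6d at 1.13 to 49.61 FPKM. Squamous here names the list and not a cell type shown by these markers. In bulk RNA, more cells of a type and more RNA per cell cannot be told apart.

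**Figure D1:**
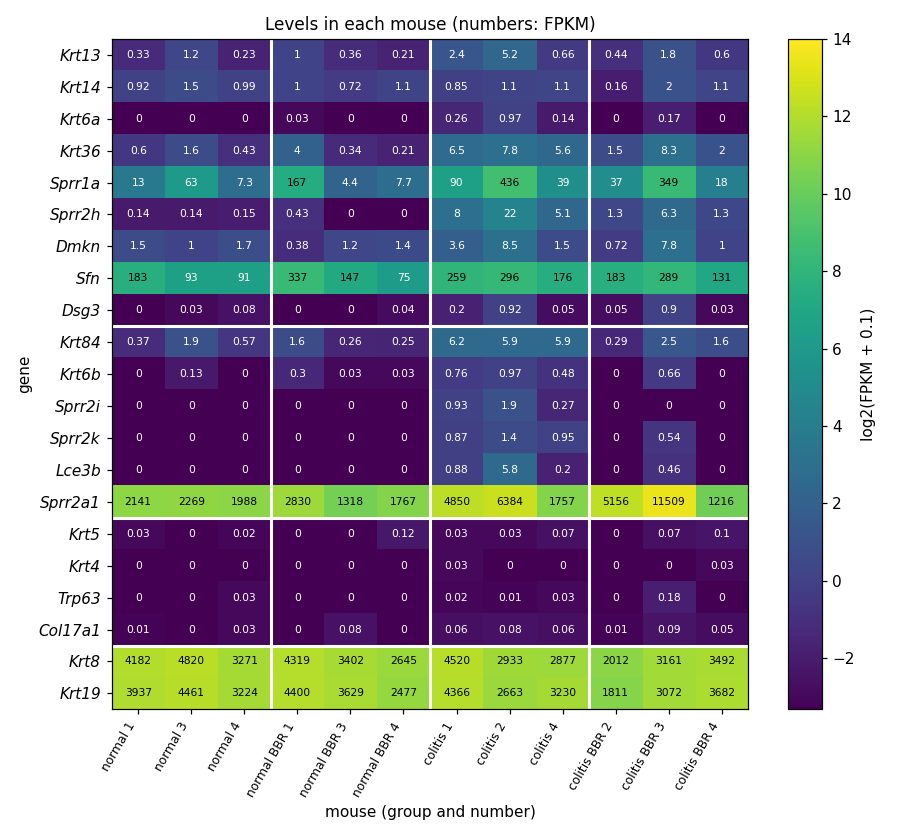
Levels of 21 genes (rows) in the 12 mice (columns, by group and number), coloured by log2(FPKM + 0.1) with the FPKM printed in each cell. Rows from the top are the 9 genes described, 6 relatives, 4 squamous markers and 2 simple keratins. Krt5, Krt4, Trp63 and Col17a1 were at most 0.18 FPKM everywhere, while Krt8 and Krt19 were at 1811 FPKM or more.

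The 250 bases before the start of transcription were read for these genes from RefSeq (GRCm38.p6), whose build is not the mm9 build named in the submitters' processing notes. A window was found for 8 of the 10 genes. Motifs were searched on both strands, TATAAA, the TATA box, and TGANTCA, which takes in the AP-1 site TGAGTCA and also other middle bases. TGANTCA was in windows of 4 of the 8 (Krt13, Sprr1a, Sprr2h and Dmkn), against 7.82% of 27025 genes counted in the same way, by a match in any of their windows. TGAGTCA itself was found for the same 4 genes, against 5.16% of genes, but for Krt13 only in another window than the one shown. TATAAA was in 3 of the 8 (Sprr1a, Sprr2h and Sprr3), against 14.3%. The sequences of Sprr2h and of Sprr2i and Sprr2k, relatives also at higher levels in colitis mice, are shown with Sprr1a and Krt13, with TGANTCA and TATAAA in capitals. They are written 5′ to 3′ toward the start, which follows the last base.
Sprr2h, chr3:92385435-92385684, plus strand: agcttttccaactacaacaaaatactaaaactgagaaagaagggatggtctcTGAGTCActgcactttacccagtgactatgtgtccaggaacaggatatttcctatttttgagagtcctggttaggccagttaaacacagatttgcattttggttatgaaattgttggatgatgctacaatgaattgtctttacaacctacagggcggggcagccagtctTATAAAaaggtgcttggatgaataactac
Sprr2i, chr3:92407741-92407990, plus strand: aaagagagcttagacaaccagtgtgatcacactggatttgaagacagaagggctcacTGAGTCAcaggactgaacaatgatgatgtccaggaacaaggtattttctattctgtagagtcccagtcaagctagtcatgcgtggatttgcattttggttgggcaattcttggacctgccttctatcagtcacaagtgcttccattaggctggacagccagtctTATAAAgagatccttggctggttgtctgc
Sprr2k, chr3:92432332-92432581, plus strand: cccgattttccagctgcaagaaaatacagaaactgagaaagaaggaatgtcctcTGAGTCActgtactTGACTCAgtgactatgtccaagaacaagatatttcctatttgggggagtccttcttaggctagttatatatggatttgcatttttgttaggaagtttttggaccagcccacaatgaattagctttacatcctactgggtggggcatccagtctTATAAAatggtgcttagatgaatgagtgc
Sprr1a, chr3:92485882-92486131, minus strand: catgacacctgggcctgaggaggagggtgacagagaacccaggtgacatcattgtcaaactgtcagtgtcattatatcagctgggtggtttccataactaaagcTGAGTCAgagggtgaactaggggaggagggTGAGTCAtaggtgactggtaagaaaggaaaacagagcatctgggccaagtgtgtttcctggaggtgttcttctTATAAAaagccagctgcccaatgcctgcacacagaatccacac
Krt13, chr11:100121567-100121816, minus strand: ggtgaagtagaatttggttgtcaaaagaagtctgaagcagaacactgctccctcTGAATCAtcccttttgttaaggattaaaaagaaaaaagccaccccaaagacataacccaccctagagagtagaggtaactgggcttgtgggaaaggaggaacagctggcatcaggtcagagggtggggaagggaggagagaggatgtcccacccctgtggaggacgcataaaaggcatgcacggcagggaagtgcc

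In the 3 Sprr2 genes TATAAA began 29 bases before the start and the first TGANTCA 193 to 198 bases before it. Sprr2k had a second TGANTCA at 182 bases. In Sprr1a TATAAA began at 43 bases and TGANTCA at 146 and 116 bases, and in Krt13 TGANTCA began at 196 bases in the window shown. These matches describe the letters of the reference sequence, and binding was not measured.

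The first question was what colitis did to these genes. Sprr2h rose in colitis mice and was the only one of the 9 to pass the adjusted limit. Krt6a and Krt36 were also higher in every colitis mouse than in every normal mouse but did not pass. Of the 9 genes, 8 had a higher mean log2 level in colitis, with a median log2 difference of 1.92 against -0.32 over all tested genes. The 1 call compares with 0.653% of all tested genes called higher, and the 3 genes without overlap compare with 7.1% of all tested genes not overlapping in that direction. At an unadjusted p under 0.05, 4 of the 9 were higher, against 5.56% of all tested genes. Both these 4 and the 3 without overlap include Krt6a, which passed the filter on low values only through the colitis mice. The genes were also chosen with earlier results of these data known, so these counts are a description.

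Sprr2h, a small proline-rich precursor of the cornified envelope, was at 0.14, 0.14 and 0.15 FPKM in normal mice 1, 3 and 4. In colitis mice 1, 2 and 4 it was at 8.03, 21.55 and 5.13 FPKM. The groups lay far apart, and the normal values were at about 1.0 to 2.0 reads against 60.1 to 173.1 reads in colitis. The log2 fold change was 5.32 ± 0.78 (SE, n = 3 and 3, 95% interval 3.63 to 7.01, limma adjusted p = 0.0141). As a ratio of estimated reads, 304 against 4, this was 71.7-fold, with a counting interval of 27.7 to 265. The log2 difference was 4.39 within the mice numbered 4 and 5.79 within the others. The limma adjusted p was over the limit without normal mouse 1 (0.0769), 3 (0.0782) or 4 (0.0551), without colitis mouse 1 (0.0611), and with a pseudocount of 0.01 (0.0577). None of the 703 stretches of 50 bases in its transcript occurred in another gene.

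Sprr1a, another envelope precursor, was at 12.86, 62.98 and 7.30 FPKM in normal mice and at 90.26, 435.69 and 39.17 FPKM in colitis mice. Colitis mouse 4 lay below normal mouse 3, so the groups overlapped. Its log2 fold change of 2.67 ± 1.46 (SE, n = 3 and 3) had a limma adjusted p of 0.296, with an interval of -0.53 to 5.86. It was 2.41 within the mice numbered 4 and 2.79 within the others.

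Among the keratins, Krt36, a hard keratin of tongue papillae and nail, was at 0.60, 1.55 and 0.43 FPKM in normal mice. It was at 6.50, 7.84 and 5.63 FPKM in colitis mice. All 3 colitis mice lay above all 3 normal mice and close to one another. Its log2 fold change was 2.98 ± 0.89 (SE, n = 3 and 3, limma adjusted p = 0.108). It passed the limit when the mice numbered 4 were fitted as a block (limma adjusted p = 0.0473) and when normal and colitis mice were fitted alone (limma adjusted p = 0.0161). These 2 fits called 9.22% and 3.19% of all tested genes, against 1.08% in the main fit. When single mice were left out it did not pass (limma adjusted p from 0.0994 to 0.296). The log2 difference was 3.43 within the mice numbered 4 and 2.75 within the others.

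Krt6a, a keratin known for its induction in wounded epidermis, was at 0 FPKM in all 3 normal mice and at 0.26, 0.97 and 0.14 FPKM in colitis mice. Every colitis mouse thus had signal and no normal mouse did. With 46 estimated reads in colitis and none in normal mice, it was at least 14.5-fold higher, taking 3 reads over the normal group as the floor. The fitted log2 difference of 2.18 ± 0.56 (SE, n = 3 and 3, limma adjusted p = 0.075) depends on the pseudocount. It was 1.26 within the mice numbered 4 and 2.63 within the others. With a block for the mice numbered 4, which called 9.22% of all tested genes, the limma adjusted p was 0.0295. Krt6a passed the filter on low values only through the colitis mice, where it is high. Its p-values, here and in the other comparisons, are therefore given as a description. Of its 50-base stretches, 49.5% also occur in Krt6b and other relatives, so reads could be split between them. Krt6b itself was at 0, 0.13 and 0 FPKM in normal mice and at 0.76, 0.97 and 0.48 FPKM in colitis mice, and is named here after its values were seen.

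Krt13, a keratin of the upper layers of mouth and oesophagus, was at 0.33, 1.21 and 0.23 FPKM in normal mice and at 2.40, 5.18 and 0.66 FPKM in colitis mice. Colitis mouse 4 again lay within the range of normal mice. The log2 fold change was 1.92 ± 0.80 (SE, n = 3 and 3, limma adjusted p = 0.198), and was 1.2 within the mice numbered 4 and 2.28 within the others.

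Krt14, the basal layer keratin, was at 0.92, 1.47 and 0.99 FPKM in normal mice and at 0.85, 1.10 and 1.14 FPKM in colitis mice. The ranges overlapped, and this was the only one of the 9 without a higher mean log2 level in colitis. Its log2 fold change of -0.10 ± 0.61 (SE, n = 3 and 3, limma adjusted p = 0.931) had an interval of -1.43 to 1.23 and took the other sign when each mouse was centred on its median (0.24) or quantile normalized (0.35). It was 0.19 within the mice numbered 4 and -0.25 within the others. Of its 50-base stretches, 14.4% also occur in other genes, mainly Krt16 and Krt17.

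Dsg3, a desmosomal cadherin of squamous epithelium, was at 0, 0.03 and 0.08 FPKM in normal mice and at 0.20, 0.92 and 0.05 FPKM in colitis mice. Dmkn, which encodes dermokine, a secreted protein of stratified epithelium, was at 1.53, 1.03 and 1.73 FPKM and at 3.65, 8.51 and 1.49 FPKM in the same order. For both genes colitis mice 1 and 2 lay above all normal mice, while colitis mouse 4 did not. The log2 fold change of Dsg3 was 1.43 ± 0.80 (SE, n = 3 and 3, limma adjusted p = 0.304), and was -0.26 within the mice numbered 4 and 2.28 within the others. That of Dmkn was 1.31 ± 0.83 (SE, n = 3 and 3, limma adjusted p = 0.352), and was -0.20 within the mice numbered 4 and 2.07 within the others. The direction of these 2 genes therefore did not hold within both sets of mice.

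Sfn, which encodes the 14-3-3 sigma protein that restrains the cell cycle, was the most abundant of the genes. It was at 183.28, 93.12 and 90.51 FPKM in normal mice and at 258.65, 296.06 and 176.33 FPKM in colitis mice. Colitis mouse 4 lay just under normal mouse 1, and the other 2 colitis mice lay above all normal mice. Its log2 fold change was 1.04 ± 0.50 (SE, n = 3 and 3, limma adjusted p = 0.248), and was 0.96 within the mice numbered 4 and 1.08 within the others. Of its 50-base stretches, 15.0% also occur in pseudogenes.

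**Figure D2:**
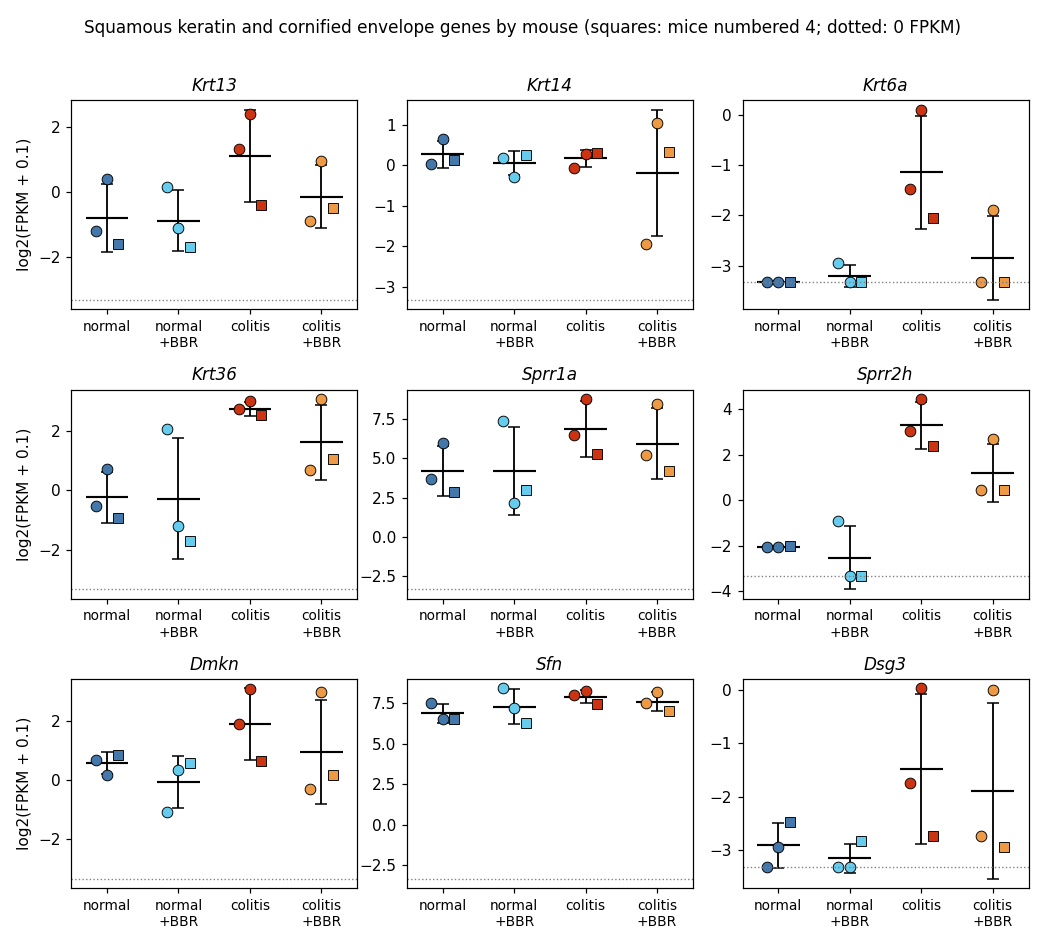
Levels of the 9 genes as log2(FPKM + 0.1) in each mouse by group, with circles for mice numbered 1 to 3, squares for mice numbered 4, a black line for the group mean and a bar of 1 SD (n = 3). In colitis mice Sprr2h, Krt36 and Krt6a lie above all normal mice, and Krt14 shows no such gap.

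The other genes of these families were described from lists. Of 17 other cornified envelope genes tested, 2 passed the limit as higher and none as lower, with a median log2 difference of 0.84, against 0.653% of all tested genes higher and 0.424% lower. At an unadjusted p under 0.05, 6 were higher and 1 lower, against 5.56% and 15.9% of all tested genes. The 2 that passed were Sprr2i and Sprr2k, small proline-rich genes like Sprr2h, with the promoters printed above. Sprr2i was at 0 FPKM in all normal mice and at 0.93, 1.87 and 0.27 FPKM in colitis mice, from 19 estimated reads. It was at least 5.97-fold higher (limma adjusted p = 0.0173). Sprr2k was at 0 FPKM in all normal mice and at 0.87, 1.44 and 0.95 FPKM in colitis mice, from 25 estimated reads, and was at least 7.86-fold higher (limma adjusted p = 0.0254, and 0.0508 in mice numbered 1 to 3 alone). Lce3b, a late envelope gene picked after its values were seen, was at 0 FPKM in all normal mice and at 0.88, 5.84 and 0.20 FPKM in colitis mice (limma adjusted p = 0.0754). Tgm3, a transglutaminase of the cornified envelope and also picked afterwards, was the 1 lower gene, at 1527 to 1676 FPKM in normal mice and 222 to 643 FPKM in colitis mice. All 3 colitis mice lay below all normal mice, with a log2 fold change of -1.96 ± 0.455 (SE, n = 3 and 3, limma adjusted p = 0.0613). Tgm3 passed the limit with the replicate block (limma adjusted p = 0.0401) and the block for the mice numbered 4 (limma adjusted p = 0.0198). These blocks called 4.79% and 9.22% of all tested genes. Sprr2i, Sprr2k and Lce3b passed the filter on low values only through the colitis mice and so had to differ, and their p-values are given as a description. Sprr2a1, an abundant relative picked in the same way, was at 1757 to 6384 FPKM in colitis mice against 1988 to 2269 FPKM in normal mice (limma adjusted p = 0.522), but 96.3% of its 50-base stretches also occur in other genes.

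Of 9 other squamous keratins tested, none passed the limit, 3 were higher and 1 lower at an unadjusted p under 0.05, which 15.9% of all tested genes passed as lower, and the median log2 difference was 0.96. Krt84, another hard keratin, was at 0.37, 1.85 and 0.57 FPKM in normal mice and at 6.23, 5.86 and 5.89 FPKM in colitis mice. All colitis mice lay above all normal mice, as for Krt36, with a log2 fold change of 2.84 ± 0.78 (SE, n = 3 and 3, limma adjusted p = 0.0922). Krt23 had a log2 fold change of 1.67 (limma adjusted p = 0.077) and Krt17 of -3.36 (limma adjusted p = 0.116). With the block for the mice numbered 4, which called 9.22% of all tested genes, the limma adjusted p was 0.0235 for Krt23, 0.0406 for Krt17 and 0.0424 for Krt6b. Over the 12 mice, which share groups and scaling, the levels of Krt36 and Krt84 had a Pearson r of 0.891.

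Among 9 other desmosome genes none passed, with a median of 0.07, and Perp, Dsg2 and Jup had log2 differences of 0.02, 0.07 and 0.05. With the replicate block 1 was called higher, and 1 with the block for the mice numbered 4. These blocks called 4.79% and 9.22% of all tested genes. Among 15 other squamous surface and secreted genes none passed, with a median of 0.18, and S100a16, S100a14 and Anxa8 had log2 differences of 0.26, 0.23 and 1.00. In that list 1 gene was called higher with the replicate block and 1 lower with the block for the mice numbered 4. Among 7 squamous transcription factors none passed, with a median of -0.35, and Klf4 and Klf5 had log2 differences of -0.71 and -0.61. None of the 6 other 14-3-3 genes, the relatives of Sfn, passed, with a median of -0.10, and Ywhaz, Ywhae and Ywhah lay between -0.21 and 0.22. At an unadjusted p under 0.05, 2 desmosome genes were higher, 2 surface genes were higher and 2 lower, 1 transcription factor was lower, and no 14-3-3 gene was either, against 5.56% of all tested genes higher and 15.9% lower.

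Markers of other cells moved in the same comparison. Of 10 neutrophil markers tested, S100a8, Ltf and Mmp8 passed the limit as higher. Mmp8 passed the filter on low values only through the colitis mice, so its call is given as a description. The summed level of the 12 genes on that list was 262 to 708 FPKM in normal mice and 629 to 4223 FPKM in colitis mice. Most of it was Ly6g, and S100a8, Elane and Ngp were at 0 in normal mice. None of 10 smooth muscle markers passed the limit, 9 were lower at an unadjusted p under 0.05, against 15.9% of all tested genes, while 5 passed as lower with the replicate block and all 10 with the block for the mice numbered 4, which called 4.79% and 9.22% of all tested genes. Their sum was 1721 to 3318 FPKM in normal mice and 91.3 to 727 FPKM in colitis mice. None of 10 macrophage markers passed, 1 was called higher with the replicate block and 2 with the block for the mice numbered 4, and their sum was 228 to 305 FPKM in normal mice and 345 to 1025 FPKM in colitis mice. None of 14 simple epithelium markers passed, with a median log2 difference of -0.03 and a sum of 14777 to 22226 FPKM in normal mice and 13577 to 20723 FPKM in colitis mice. None of 8 skeletal muscle markers and 3 hair follicle and sebaceous markers tested passed, although Ckm was called lower with both blocks (limma adjusted p = 0.0174 and 0.00732) and 1 hair follicle marker with the block for the mice numbered 4, and their summed lists lay at 11.3 to 21.3 FPKM and 0.28 to 0.64 FPKM in normal mice and at 15.0 to 19.1 FPKM and 0.22 to 1.28 FPKM in colitis mice. The part of these other cells in the differences of the 9 genes was not tested.

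**Figure D3:**
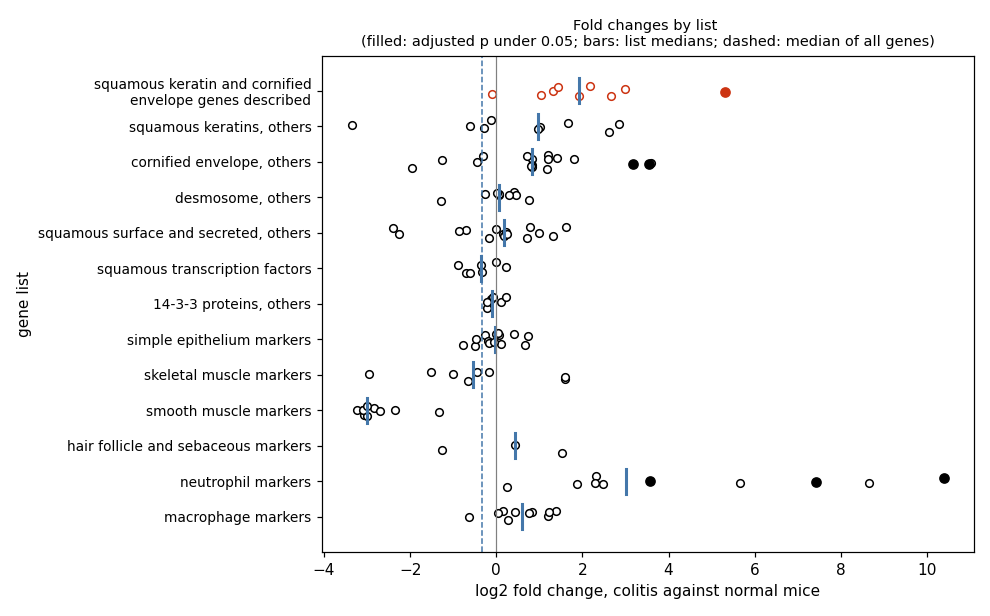
Log2 fold changes of colitis against normal mice (horizontal axis) for the tested genes of each list (rows), filled where the limma adjusted p was under 0.05, with blue bars at list medians and a dashed line at the median of all tested genes, -0.32. The median of the genes described is 1.92, and those of the desmosome, 14-3-3 and simple epithelium lists lie between -0.10 and 0.07.

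The second question was whether BBR changed these genes in colitis. Colitis mice receiving BBR had a lower mean log2 level than colitis mice for all 9 genes, with a median log2 difference of -0.93 against -0.09 over all tested genes, but none passed the adjusted limit. No gene of the whole table passed it either (0.0% called). No gene of the 9 was without overlap between these groups, against 5.66% of all tested genes not overlapping in that direction. At an unadjusted p under 0.05, 2 of the 9 were lower, against 5.2% of all tested genes. Of these 2, Krt6a passed the filter on low values only through the colitis mice, which favoured a lower value with BBR. Its p-values and this count are therefore a description.

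These 2 genes were Sprr2h and Krt6a. Sprr2h was at 1.27, 6.32 and 1.28 FPKM in colitis mice 2, 3 and 4 receiving BBR, where mouse 3 lay within the colitis range of 5.13 to 21.55 FPKM and the others below it. The log2 fold change was -2.08 ± 0.78 (SE, n = 3 and 3, interval -3.78 to -0.39, limma adjusted p = 0.638, exact permutation p = 0.2). Krt6a was at 0, 0.17 and 0 FPKM, with mouse 3 again inside the colitis range. Its log2 difference was -1.70 ± 0.56 (SE, n = 3 and 3, limma adjusted p = 0.568, exact permutation p = 0.2), and in estimated reads, 5 against 46, the ratio was 0.115 with a counting interval of 0.0355 to 0.287. Without mouse 3 the log2 difference was -2.82 for Sprr2h (limma adjusted p = 0.147) and -2.18 for Krt6a (limma adjusted p = 0.139), and no gene of the 9 passed.

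The remaining genes overlapped widely between these groups. Krt36 was at 1.52, 8.28 and 2.0 FPKM in colitis mice receiving BBR, Krt13 at 0.44, 1.84 and 0.60 FPKM, and Sprr1a at 36.66, 349.11 and 17.88 FPKM. Dmkn was at 0.72, 7.79 and 1.04 FPKM and Dsg3 at 0.05, 0.90 and 0.03 FPKM. Krt14 was at 0.16, 1.96 and 1.15 FPKM and Sfn at 183.09, 289.06 and 130.60 FPKM. In every one of these genes mouse 3 was the highest of its group. The log2 differences from colitis mice were -1.26 for Krt13, -1.13 for Krt36, -0.93 for Dmkn, -0.91 for Sprr1a, -0.41 for Dsg3, -0.36 for Krt14 and -0.32 for Sfn, all with intervals that include 0. The direction turned within the mice numbered 4 only for Krt14, with 0.012 there and -0.54 within the others, and for Krt13 the values were -0.12 and -1.83. For the other 7 genes the difference was -1.92 to -0.21 within the mice numbered 4 and -2.16 to -0.27 within the others. Without mouse 3 they were -2.17 for Sprr1a, -1.94 for Dmkn, -1.86 for Krt36, -1.81 for Krt13, -1.36 for Dsg3, -0.98 for Krt14 and -0.62 for Sfn. Without colitis mouse 2 the difference was 0.042 for Sprr1a and 0.34 for Dsg3, and without colitis mouse 2 receiving BBR it was 0.52 for Krt14 and 0.010 for Dsg3. Without colitis mouse 4 receiving BBR that of Dsg3 was 0.11.

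Relatives of these genes gave no call in this comparison either. Sprr2i was at 0 FPKM in all 3 colitis mice receiving BBR, and Sprr2k was at 0.54 FPKM in mouse 3 and at 0 FPKM in the others. Krt84 was at 0.29, 2.48 and 1.58 FPKM, all below the 5.86 FPKM of the lowest colitis mouse, with a log2 fold change of -2.35 ± 0.78 (SE, n = 3 and 3, limma adjusted p = 0.571, exact permutation p = 0.1). Of 17 other cornified envelope genes, 4 were lower and 1 higher at an unadjusted p under 0.05, and of 9 other squamous keratins 2 were lower. The envelope list includes Sprr2i, Sprr2k and Lce3b, which passed the filter on low values only through the colitis mice. Of all tested genes, 5.2% were lower and 1.19% higher at an unadjusted p under 0.05. Of 10 macrophage markers 7 were lower at that limit, and the sum of that list was 183 to 340 FPKM. The neutrophil list summed to 492 to 2985 FPKM and the smooth muscle list to 505 to 3668 FPKM in colitis mice receiving BBR, and their part in the result was not tested.

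BBR in normal mice was the next comparison. The 9 genes had log2 differences between -0.63 (Dmkn) and 0.43 (Sfn), with a median of -0.08 against -0.02 over all tested genes. None passed the adjusted limit (0.0% of all tested genes), and none was past an unadjusted p of 0.05, which 0.516% of all tested genes passed as higher and 0.842% as lower. All 9 overlapped between the groups, where 4.17% of all tested genes were higher and 5.46% lower without overlap. The mean level of Sprr1a in normal mice receiving BBR rested on mouse 1, with values of 167.12, 4.44 and 7.70 FPKM in mice 1, 3 and 4. Krt36 had 4.03, 0.34 and 0.21 FPKM, Sfn 336.60, 147.37 and 75.39 FPKM, and Krt13 1.01, 0.36 and 0.21 FPKM, all highest in the same mouse. Sprr2h was at 0.43, 0 and 0 FPKM and Krt6a at 0.03, 0 and 0 FPKM, at or near the worth of 3 reads. Krt14 was at 1.03, 0.72 and 1.09 FPKM, Dmkn at 0.38, 1.17 and 1.39 FPKM, and Dsg3 at 0, 0 and 0.04 FPKM. The difference within the mice numbered 4 and within the others was -0.26 and 0.77 for Sfn, -0.77 and 0.33 for Krt36, 0.13 and -0.39 for Krt14 and 0.076 and -0.053 for Sprr1a, each of opposite sign, and -1.32 and -0.060 for Sprr2h. The 95% interval of the difference was -0.67 to 1.52 for Sfn and -3.20 to 3.18 for Sprr1a, so changes of several-fold in Sprr1a were not detectable with these mice.

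Colitis mice receiving BBR were also set against normal mice receiving BBR. Of the 9 genes, 8 had a higher mean log2 level, with a median log2 difference of 1.01 against -0.40 over all tested genes, and none passed the adjusted limit, which 0.0261% of all tested genes passed as higher. Sprr2h was the 1 gene without overlap, against 2.26% of all tested genes in that direction. Its lowest value with colitis, 1.27 FPKM, lay above its highest without, 0.43 FPKM. The log2 fold change was 3.72 ± 0.78 (SE, n = 3 and 3, limma adjusted p = 0.15, exact permutation p = 0.1), and in estimated reads, 72 against 3, the ratio was 22.8 with a counting interval of 7.51 to 113. It passed the limit with a block for the mice numbered 4 (limma adjusted p = 0.0441) and without colitis mouse 4 receiving BBR (limma adjusted p = 0.0219). These 2 fits called 1.75% and 14.7% of all tested genes, against 0.0392% in the main fit. Krt36 had a log2 fold change of 1.89 ± 0.89 (SE, n = 3 and 3, limma adjusted p = 0.262), and its groups overlapped, with normal mouse 1 receiving BBR above colitis mice 2 and 4 receiving BBR. The difference within the mice numbered 4 and within the others was 3.79 and 3.69 for Sprr2h and 2.76 and 1.45 for Krt36, but -0.39 and 1.70 for Dmkn, -0.11 and 1.95 for Dsg3 and 0.071 and -0.40 for Krt14. Without colitis mouse 3 receiving BBR the log2 difference was 2.98 for Sprr2h (limma adjusted p = 0.461), 1.16 for Krt36, 0.51 for Sprr1a, 0.32 for Dsg3 and 0.19 for Krt13, and it fell to -0.002 for Dmkn, -0.006 for Sfn and -0.13 for Krt6a. This comparison and that of colitis against normal used different mice, and for Sprr2h both had the same direction.

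**Figure D4:**
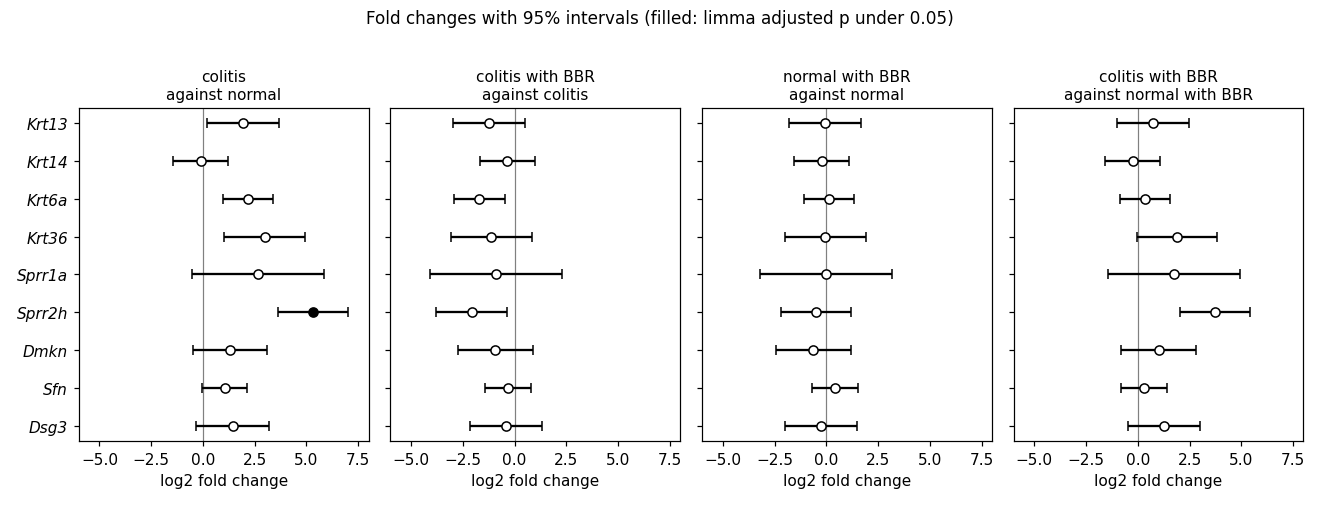
Log2 fold changes (horizontal axis) of the 9 genes (rows) in 4 comparisons (panels), with 95% intervals from limma and filled points where the adjusted p was under 0.05. Sprr2h in colitis against normal mice, at 5.32, is the only filled point, and its interval in the last panel, 2.03 to 5.41, also lies above 0.

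Whether BBR acted differently in colitis and in normal mice was tested as an interaction. All 9 estimates were negative, from -1.83 for Krt6a to -0.14 for Krt14, and none passed the adjusted limit (0.0% of all tested genes). Krt6a was the 1 gene past an unadjusted limit of 0.05 (limma adjusted p = 1.0), against 1.72% of all tested genes in that direction. Krt6a passed the filter on low values only through the colitis mice, which favoured a negative estimate in advance, so this is a description. The interval for Sprr2h was -4.00 to 0.79.

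Mice of the same group differed in most of these genes together. Colitis mouse 2 was the highest of its group for 8 of the 9 genes, all but Krt14, and colitis mouse 4 was the lowest for 8. Colitis mouse 3 receiving BBR was the highest of its group for all 9, and normal mouse 1 receiving BBR for 6. Over the 12 mice, the Pearson r of log2 levels between pairs of these genes had a median per gene of 0.26 for Krt14 and of 0.56 to 0.78 for the other 8. The closest pairs were Dmkn with Dsg3 (0.917), Krt36 with Sprr2h (0.91) and Krt36 with Sprr1a (0.901), while Krt14 with Sfn was at -0.014. Sprr2h had an r of 0.887 with Sprr2k and of 0.759 with Sprr2i. These values include the differences between the 4 groups and the scaling that the mice share.

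Across 11936 other genes with a mean of at least 1 FPKM, the 10 most alike in their pattern had a mean Pearson r with the 9 genes of 0.772 to 0.784. Among them were Anxa1, Egfr, Tnfrsf23, Tgm5, Eif4ebp1, Cap1, Cwh43, Tgm2 and Nucb2, and 162 genes had a mean r over 0.7. Anxa1, which encodes annexin A1, had group means of 174.3 FPKM in normal mice, 170.3 FPKM in normal mice receiving BBR, 443.9 FPKM in colitis mice and 310.4 FPKM in colitis mice receiving BBR. Tgm5 and Tgm2 encode transglutaminases, as does Tgm3, which had the other direction in colitis, with a mean of 452.2 FPKM against 1604 FPKM without colitis or BBR. By Spearman rho, Cap1 was again among the 10 most alike, while Anxa1, Egfr, Tnfrsf23, Tgm5, Eif4ebp1, Cwh43, Tgm2 and Nucb2 were not.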

How the data were processed

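Ribosomal RNA was removed and single ends of 50 bases were read and filtered with SOAPnuke. The authors deposited an expression table with a column for each mouse, which was taken as FPKM. The submitters' processing notes name Bowtie2 2.2.5, RSEM 1.2.12 and mm9. No source names the unit, and from its values TPM cannot be told apart from FPKM. For the kit and the sequencer, the labels and the methods differ.

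Genes averaging 0.1 FPKM or more (15315) were fitted as log2(FPKM + 0.1) in limma 3.58.1 (R 4.3.3), using a mean for each of the 4 groups and a trend on mean expression. P-values were Benjamini-Hochberg adjusted over these genes with a limit of 0.05. The fit was tested on simulated data. Groups and mouse numbers come from the labels, which do not say what a mouse number marks.

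The numbers 1, 3 and 4 are shared by normal mice with and without BBR, and deviations from the group means of same-numbered mice had correlations of 0.290, 0.109 and 0.657, against -0.532 to 0.456 for unlike numbers. Each is over the limit of 0.1 used here to take numbers as pairs, although only the mice numbered 4 correlated best with their own number, and the replicate block made no call in that comparison.

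The table holds no read counts. The worth of 1 read was instead estimated where low values of 1203 single-transcript genes (GENCODE vM21) fell on steps, and values under about 3 reads carry little information. Relatives were named by these rules: genes of a list past the limit, or its 3 genes with the highest mean where none passed, and the 10 most alike genes, of which some are not reported here. The genes described and the lists were chosen with earlier results of these data known. Alternatives were another pseudocount, filter or scaling, no trend, the compared groups alone, blocks, mice 1 to 3 alone and leaving out each mouse.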

Additional observations from a re-analysis of the deposited data

How the results depend on the processing

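Of 800 values of the 9 genes under other settings, 742 kept their direction and their side of the adjusted limit, 48 changed sign, 5 passed the limit anew and 5 no longer did. In 28 of 45 fold changes no setting turned the sign. In colitis against normal mice, the 1 call became 0 with a pseudocount of 0.01, 2 in the compared groups alone and 3 with a block for the mice numbered 4. These settings called 0.594%, 3.19% and 9.22% of all tested genes, against 1.08% in the main fit. The count was 0 to 1 when single mice were left out, where 0.0718% to 1.38% of all tested genes passed. In colitis with BBR against normal with BBR, the 0 calls became 1 with the block for the mice numbered 4 and were 0 to 1 without single mice. Of all tested genes 1.75% passed with that block and 0% to 14.7% without single mice, against 0.0392% in the main fit. The replicate block left 1 call in colitis against normal mice (Sprr2h, adjusted p = 0.0176) and 0 in the other comparisons. Outside the normal groups, same-numbered mice share fewer than 3 pairs, with correlations from 0.0777 (colitis mice numbered 2) to 0.751 (colitis mice numbered 4), so their numbers are not taken as pairs. Of 118 related genes tested, 5 passed in colitis against normal mice, 17 with the replicate block, 33 with the block for the mice numbered 4 and 16 in mice numbered 1 to 3 alone, where 1.08%, 4.79%, 9.22% and 5.25% of all tested genes passed. In colitis with BBR against normal with BBR none passed, against 3 with the block for the mice numbered 4 and 26 in mice numbered 1 to 3 alone, where 0.0392%, 1.75% and 15% of all tested genes passed. Of the 10 most alike genes, 2 were shared with the Spearman list. The causes were not tested.

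The median over all genes in colitis against normal mice moved from -0.32 to -0.05 with quantile normalization and to 0.02 with median centring, and the median of the 9 genes from 1.92 to 2.30 and 2.25. Signs turned for Krt14 in colitis against normal mice with quantile normalization (0.35), median centring (0.24) and the replicate block (0.42), with a range of -0.22 to 0.09 without single mice. In colitis with BBR against normal with BBR, Krt14 turned with a pseudocount of 1 (0.006), quantile normalization (0.31), median centring (0.21) and the replicate block (0.079). In normal mice receiving BBR, Krt36 turned with a pseudocount of 1 (0.16), quantile normalization (0.006) and mice numbered 1 to 3 alone (0.33), and Sprr1a with a pseudocount of 1 (0.037) and median centring (0.025). In the interaction, Krt14 turned with a pseudocount of 1 (0.067) and Dsg3 with a pseudocount of 0.01 (0.14). Leaving out single mice gave these other ranges that cross 0. In colitis with BBR against colitis, Krt14 lay at -0.98 to 0.52, Sprr1a at -2.17 to 0.042 and Dsg3 at -1.36 to 0.34. In normal mice receiving BBR, Krt13 lay at -0.60 to 0.52, Krt36 at -1.20 to 0.67, Sprr1a at -1.61 to 0.99 and Sfn at -0.13 to 0.95. In colitis with BBR against normal with BBR, Krt14 lay at -0.86 to 0.64, Krt6a at -0.13 to 0.59, Dmkn at -0.002 to 1.63 and Sfn at -0.23 to 0.85. In the interaction, Krt14 lay at -0.76 to 0.74, Krt36 at -1.82 to 0.069, Sprr1a at -2.16 to 0.70, Dmkn at -1.31 to 0.32 and Dsg3 at -1.11 to 0.59. With a filter at a mean of 1, Krt6a and Dsg3 were not tested. No fit of the compared groups alone exists for the interaction, which uses all groups. With 3 mice in a group and values near 3 reads, small changes of Krt6a, Dsg3 and Sprr2h could not be seen.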
